A study of Mus musculus with 6 samples.

Results

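Apolipoprotein transcripts were examined in the adrenal glands of adult female mouse offspring. The 10 apolipoprotein genes considered were Apoa1, Apoa2, Apoa4, Apoa5, Apob, Apoc1, Apoc3, Apoe, Apoh and Apom. They were chosen by name, with earlier results of these data known. A probe set is the group of array probes that reports 1 transcript. Every probe set was taken if it carried exactly 1 gene symbol and that symbol was one of these 10. This gave 10 probe sets, 1 per gene, of 25150 on the array, and all 10 were among the 16034 probe sets tested. The CGP group comprised adult offspring of C57Bl/6J mothers that received CGP 39551, an orally active antagonist of the NMDA type of glutamate receptor, by mouth at 5 mg/kg throughout pregnancy and until weaning. The CON group comprised offspring that the labels describe only as control. In both groups the adrenals were taken at 21 weeks of age and RNA of 18 mice was pooled, and each group was measured on 3 whole-transcript arrays. The labels leave unsaid if a single pool was hybridised 3 times or if separate pools were made, so the p-values measure only the spread between arrays, which may be technical.

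Apolipoproteins are the protein part of lipoproteins, the particles that carry cholesterol and triglycerides in plasma. They hold the particle together, switch the enzymes that act on its lipids on or off, and serve as ligands for the receptors that take it up. Most are made in hepatocytes and enterocytes and secreted, whereas Apoe is also made by macrophages and by steroid-producing cells. The adrenal cortex is a consumer of lipoproteins, since it takes up their cholesteryl esters as a substrate for steroid hormones.

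The upstream sequences of the genes are shown because 8 of the 10 genes moved in 1 direction and because several transcription factors of apolipoprotein genes were measured on the same arrays. Of the 10 genes, 8 had an entry in the RefSeq promoter table of build GRCm38.p6, and Apoc1 and Apoc3 were not shown. The 250 bases before the first listed start site are given 5′ to 3′ for Apoa2 and Apoh, the genes with the largest falls, for Apoa4 and Apob, which share a motif with Apoh, and for Apoe, which did not pass the test. Capitals mark matches on either strand to 7 short motifs, namely the TATA box TATAAA, the nuclear receptor half-site AGGTCA, the form CAAAGNNCA bound by HNF4 proteins, the HNF1 half-site GTTAAT, the form TGTTTAC bound by FOX proteins, the C/EBP form TTGCGNAA and the box CCAAT.
Apoa2, chr1:171224804-171225053, plus strand: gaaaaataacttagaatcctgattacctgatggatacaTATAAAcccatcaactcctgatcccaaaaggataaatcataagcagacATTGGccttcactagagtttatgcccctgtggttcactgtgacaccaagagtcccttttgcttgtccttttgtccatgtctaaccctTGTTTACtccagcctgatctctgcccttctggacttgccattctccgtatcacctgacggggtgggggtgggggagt
Apoh, chr11:108395047-108395296, plus strand: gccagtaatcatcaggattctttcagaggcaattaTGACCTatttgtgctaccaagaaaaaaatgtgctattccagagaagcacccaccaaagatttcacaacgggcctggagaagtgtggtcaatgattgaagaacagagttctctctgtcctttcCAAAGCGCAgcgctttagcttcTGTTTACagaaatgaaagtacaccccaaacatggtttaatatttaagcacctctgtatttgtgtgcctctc
Apoa4, chr9:46240594-46240843, plus strand: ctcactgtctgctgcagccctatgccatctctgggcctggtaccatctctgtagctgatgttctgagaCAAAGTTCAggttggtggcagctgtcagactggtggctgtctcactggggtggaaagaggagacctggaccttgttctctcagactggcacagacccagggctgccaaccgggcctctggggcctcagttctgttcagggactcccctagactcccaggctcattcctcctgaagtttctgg
Apob, chr12:7977427-7977676, plus strand: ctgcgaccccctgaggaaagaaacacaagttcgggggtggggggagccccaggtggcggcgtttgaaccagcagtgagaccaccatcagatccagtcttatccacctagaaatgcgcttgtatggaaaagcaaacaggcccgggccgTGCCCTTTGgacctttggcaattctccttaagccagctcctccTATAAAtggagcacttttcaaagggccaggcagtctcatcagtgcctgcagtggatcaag
Apoe, chr7:19699189-19699438, minus strand: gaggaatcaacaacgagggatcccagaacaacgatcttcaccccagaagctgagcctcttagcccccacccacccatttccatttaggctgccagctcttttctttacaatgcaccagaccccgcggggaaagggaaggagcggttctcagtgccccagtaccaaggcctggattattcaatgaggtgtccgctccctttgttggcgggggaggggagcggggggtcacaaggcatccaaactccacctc
The HNF4 form lay 93 bases before the start site in Apoh, 103 bases before it in Apob and 182 bases before it in Apoa4. It was found in 3 of the 8 first windows and in 3 of all 12 windows of these genes. Of 32851 windows of this length, which count every listed start site of a gene, 5.49% held it. The FOX form was found in Apoa2 and Apoh, 77 and 71 bases before the start site, and in 3.17% of all windows. The TATAAA motif was found in Apoa2, Apob and Apoa5, 31 bases before the start site in Apoa5, and in 12.4% of all windows. Apoh also held AGGTCA (14% of all windows) and Apoa2 also held CCAAT (33.8%). No match to any of the 7 motifs was found in the first windows of Apoa1, Apoe and Apom. Other listed start sites gave other matches: of the 3 windows of Apoe, 1 further window held TATAAA and another held GTTAAT, and the other window of Apoa2 held the nuclear receptor half-site and the CCAAT box. Among the first windows, GTTAAT (6.43% of all windows) and TTGCGNAA (0.67%) were in none of the 8. A match is a description of the letters and not of a binding site.

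In the CGP group, 8 of the 10 apolipoprotein transcripts were lower than in the CON group and none was higher. The DEGs were Apoa1, Apoa2, Apoa4, Apoa5, Apob, Apoc1, Apoc3 and Apoh, at an adjusted p under 0.05 in limma with Benjamini-Hochberg adjustment over all 16034 probe sets. Over all probe sets tested, 1.59% were called lower and 1.94% were called higher. The apolipoproteins were chosen with earlier results known, so their count beside these shares is a description and not a test. At an unadjusted limma p under 0.05 the number higher was still 0 and the number lower was 9. The gene added was Apom, whose values lay under background, as given below. The median log2 fold change (CGP minus CON) was -0.70 over the 10 genes and -0.01 over all probe sets tested. The fall passed 1.5-fold in 6 genes and 2-fold in Apoa2 alone. On all 10 probe sets the 3 CGP arrays lay below the 3 CON arrays, an arrangement seen in 12.6% of all probe sets tested. The number of probe sets called lower in all, 255, depended on single arrays, and ranged between 149 without CGP array 3 and 487 without CON array 1. The 311 called higher likewise ranged between 79 without CGP array 2, where 157 were called lower, and 612 without CON array 1. The count of 8 apolipoproteins was the same whichever array was left out.

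**Figure D1:**
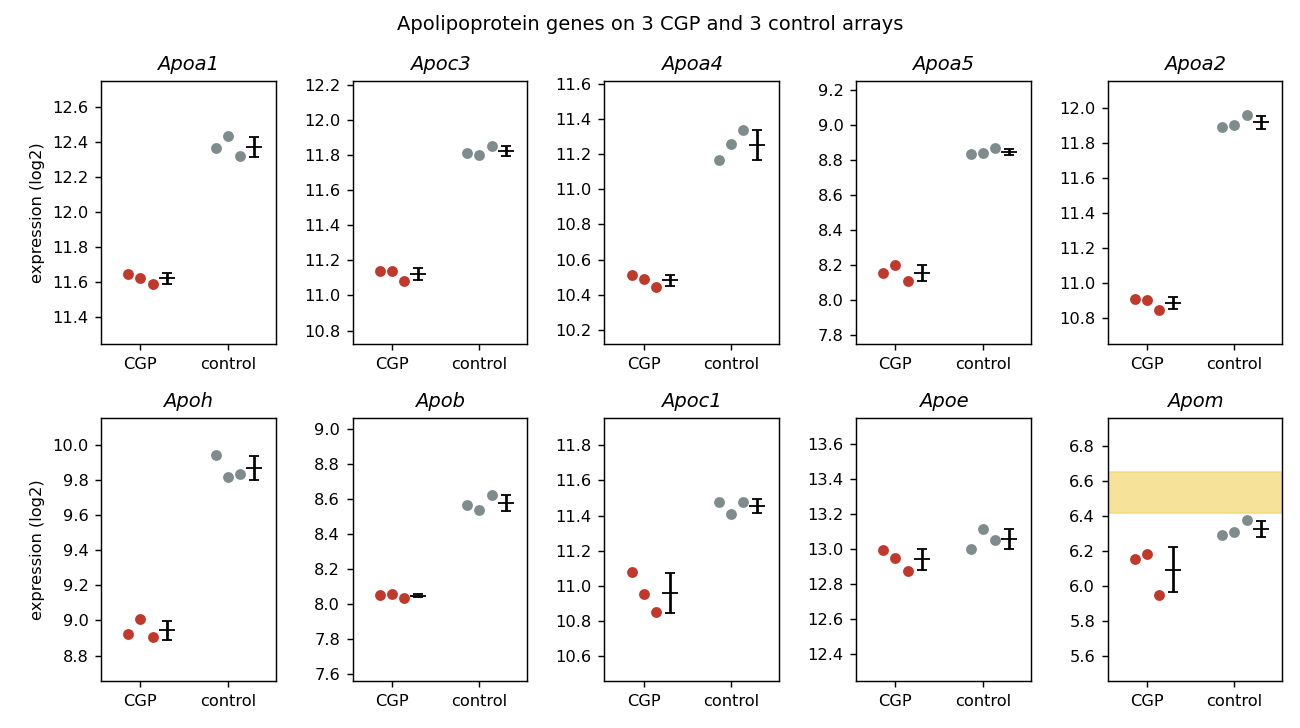
Each panel plots the deposited log2 expression (vertical axis, each panel spanning the same 1.5 log2 units) of 1 apolipoprotein gene on 3 CGP arrays (red) and 3 control (CON) arrays (grey), with the mean and SD as a black bar. The red points lie below the grey ones in all panels, by 0.98 log2 units in Apoa2 and by 0.0039 in Apoe, and both groups of Apom lie under the yellow band, the range of the background over the 6 arrays (6.42 to 6.65).

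Apoa1 encodes the main protein of high-density lipoprotein and activates the cholesterol-esterifying enzyme Lcat. Its log2 expression was 11.65, 11.63 and 11.59 on the CGP arrays, against 12.36, 12.43 and 12.32 on the CON arrays. All CGP arrays were low, and the gap between the groups was 6.05 times the wider of their ranges. The log2 fold change was -0.75 ± 0.049 (SE, n = 3 arrays per group, limma adjusted p = 0.000135), a level 1.68-fold lower in the CGP group. Apoa2, the other structural protein of high-density lipoprotein, fell most. It stood at 10.91, 10.91 and 10.85 on the CGP arrays, against 11.89, 11.90 and 11.96 on the CON arrays. The groups were separated by 13.6 times the wider range. The fall was 2.04-fold (log2 fold change -1.03 ± 0.046, limma adjusted p = 4.33e-05), and it ranked at place 8 of all 16034 probe sets by p.

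The genes that regulate triglyceride-rich particles fell as well. Apoc3, an inhibitor of triglyceride clearance, had log2 values of 11.14, 11.14 and 11.08 on the CGP arrays, against 11.81, 11.80 and 11.85 on the CON arrays. Its log2 fold change was -0.70 ± 0.045 (limma adjusted p = 0.000132). Apoa5, which promotes the action of lipoprotein lipase, gave 8.16, 8.20 and 8.11 on the CGP arrays, against 8.83, 8.84 and 8.87 on the CON arrays. The change was -0.69 ± 0.046 (limma adjusted p = 0.00015). Apoa4, carried on chylomicrons and high-density lipoprotein, gave 10.51, 10.49 and 10.45 on the CGP arrays, against 11.17, 11.26 and 11.34 on the CON arrays. Its change was -0.77 ± 0.055 (limma adjusted p = 0.000236), and its CON arrays spread more widely than its CGP arrays. None of these genes had a CGP array within the range of the CON arrays. With Apoa1 they form 1 gene cluster on mouse chromosome 9, and their 4 log2 fold changes lay within 0.08 of each other, between -0.69 and -0.77.

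Apob encodes the protein around which very-low-density and low-density lipoproteins and chylomicrons are built. It read 8.05, 8.05 and 8.04 on the CGP arrays, against 8.57, 8.54 and 8.62 on the CON arrays. The CGP arrays agreed within 0.018 log2 units, and the groups did not overlap. The fall was 1.44-fold (log2 fold change -0.53 ± 0.045, limma adjusted p = 0.000517). Apoh, a phospholipid-binding plasma glycoprotein, read 8.92, 9.01 and 8.90 on the CGP arrays, against 9.95, 9.82 and 9.84 on the CON arrays. Here too every CGP array was low. The fall was 1.90-fold (log2 fold change -0.92 ± 0.055, limma adjusted p = 0.000111).

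The pair Apoe and Apoc1, neighbours on chromosome 7, gave the smallest changes of the genes above background. Apoc1, which inhibits lipoprotein uptake, read 11.08, 10.95 and 10.85 on the CGP arrays, against 11.48, 11.41 and 11.48 on the CON arrays. The CGP arrays spread over 0.23 log2 units, more than 3 times the spread of the CON arrays, but did not reach them. The fall was 1.41-fold (log2 fold change -0.50 ± 0.065, limma adjusted p = 0.00586). When a change beyond 1.2-fold was required Apoc1 was no longer called (adjusted p = 0.328), and over the 15 alternatives its adjusted p ranged between 1.65e-05 and that value. Apoe, the ligand of the LDL receptor family, read 13.00, 12.95 and 12.87 on the CGP arrays, against 13.00, 13.12 and 13.05 on the CON arrays. The highest CGP array and the lowest CON array differed by 0.0039. Apoe did not pass the test (log2 fold change -0.12, 95% interval -0.24 to 0.01, limma adjusted p = 0.288), so a fall of the size seen in Apoc1 lay outside its interval. The difference between the changes of Apoe and Apoc1 was not tested.

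Apom encodes a lipid-binding protein of high-density lipoprotein. It read 6.15, 6.18 and 5.95 on the CGP arrays, against 6.29, 6.31 and 6.37 on the CON arrays. All 6 values lay under the background of their array, taken as the 75th percentile of 127 probe sets for olfactory, vomeronasal and trace amine receptors, which lay between 6.42 and 6.65. No fold change is therefore given for Apom, and its adjusted p of 0.128 cannot show whether the transcript changed.

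**Figure D2:**
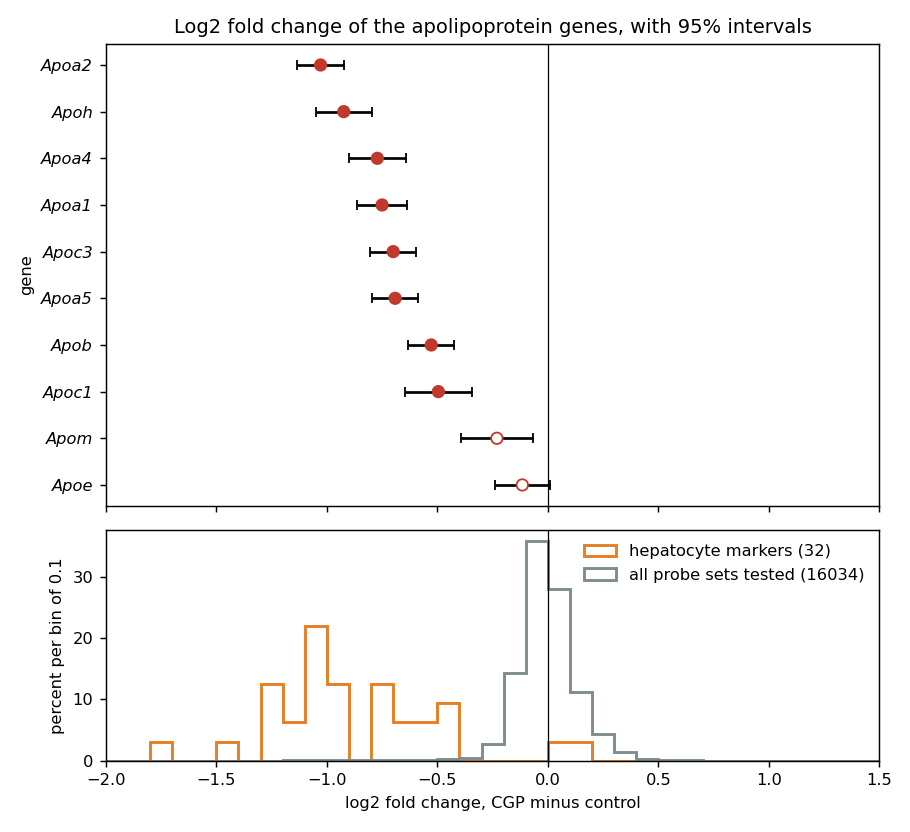
The upper panel plots the log2 fold change (CGP minus control) of each apolipoprotein gene with its 95% interval, filled where the limma adjusted p was under 0.05. Apom is drawn too, although its values lay under background, so its point has no meaning as a change. The lower panel shows the percent of hepatocyte markers (orange, 32 genes) and of all 16034 probe sets tested (grey) per bin of 0.1: the 8 filled points, between -1.03 and -0.50, lie below nearly all of the grey distribution, and the hepatocyte markers reach further down, with a median of -0.97.

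Within the CGP group, array 3 stood slightly below the others. It was the lowest CGP array for 10 of 10 apolipoproteins, against 39.2% of all probe sets tested and 8 of 32 hepatocyte markers. The shift was small: the median deviation of the 10 genes from their group mean was -0.04 on CGP array 3, 0.02 on CGP array 1 and 0.01 on CGP array 2. Without CGP array 3 the median log2 fold change of the 10 genes was -0.67.

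Markers of hepatocytes moved with the apolipoproteins. Of 36 listed hepatocyte genes 32 were tested, of which 30 were lower in the CGP group, none was higher, and Cyp2e1 and Hp did not pass. The log2 fold changes of Cyp2e1 (0.17, limma adjusted p = 0.0706) and Hp (0.10, limma adjusted p = 0.377) went the other way. At an unadjusted limma p under 0.05, 30 markers were lower and 1 was higher. The median log2 fold change of the 32 markers was -0.97, with quartiles of -1.10 and -0.67. The median level of the list on an array lay between 8.70 and 8.85 in the CGP group and between 9.65 and 9.77 in the CON group, and none of the 32 genes was under background in both groups. Kng1, a plasma kininogen, was 2.07-fold lower, Bhmt, a methyltransferase of methionine synthesis, 2.13-fold, Cps1, which feeds ammonia into the urea cycle, 2.30-fold, and Hgd, an enzyme of tyrosine breakdown, 2.37-fold (limma adjusted p = 4.33e-05 each). Alb, the plasma albumin gene, read 12.92, 13.00 and 13.02 on the CGP arrays, against 13.42, 13.40 and 13.39 on the CON arrays (log2 fold change -0.42 ± 0.047, limma adjusted p = 0.00256). The part of hepatocyte RNA in the fall of the apolipoproteins was not tested. In a bulk sample, fewer cells of a type and less RNA per cell cannot be told apart.

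To see how far each apolipoprotein followed the hepatocyte list, the median of the 32 markers was subtracted on every array. With 3 arrays against 3 an exact two-sided permutation test cannot go below p = 0.1, so none of these differences can pass 0.05. Relative to the markers, Apoa2 (-0.08, exact p = 0.4), Apoh (0.02, exact p = 0.7), Apoa4 (0.18, exact p = 0.3) and Apoa1 (0.20, exact p = 0.2) overlapped between the CGP and CON arrays. Apoc3 (0.25), Apoa5 (0.26), Apob (0.42), Apoc1 (0.45) and Apoe (0.83) were higher in the CGP group with no overlap (exact p = 0.1 each), so their difference between the groups was smaller than that of the median marker. Apom gave 0.72, a value with no meaning as a level because the gene was under background. The median over the 10 genes was 0.25. It turned to -0.28 with Alb alone as the yardstick, where 7 genes were lower in the CGP group without overlap, Apoe alone was higher (0.30), and Apoc1 and Apom overlapped. Apoe was thus higher against either yardstick, whereas Apoc3, Apoa5 and Apob were higher against the marker median and lower against Alb. Both yardsticks fell, so a gene that changed little must come out higher against each. These comparisons restate the log2 fold changes and add no support to them.

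**Figure D3:**
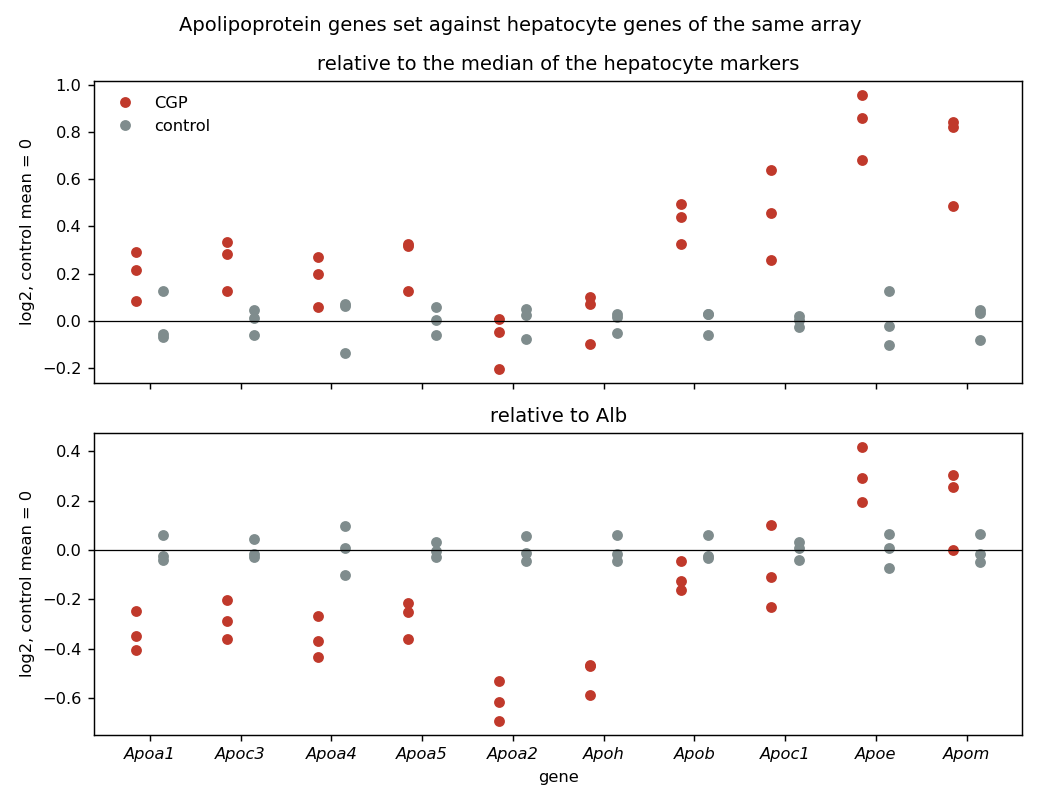
Each point is 1 array, CGP in red and control in grey, and the vertical axis is the log2 level of an apolipoprotein gene minus the median of the 32 hepatocyte markers (upper panel) or minus Alb (lower panel), with the control mean set to 0. Apoe stands above the control arrays in both panels, by 0.83 and 0.30 on average, while Apoa1, Apoc3, Apoa4, Apoa5, Apoh, Apob and Apoc1 average above 0 in the upper panel and below it in the lower one.

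Few markers of other cell types were lower in the CGP group. Among 7 tested markers of liver macrophages and sinusoids (median -0.10), Clec4g, a lectin of liver sinusoids, was lower (log2 fold change -0.44, limma adjusted p = 0.00488). Its CGP values of 6.63, 6.64 and 6.53 lay close above background. The call was lost when a change beyond 1.2-fold was required (limma adjusted p = 0.545). Of these 7 markers, 6 had a negative log2 fold change and 2 were lower at an unadjusted limma p under 0.05. In 3 of them both group means were under background, so this list could also show little. No marker passed among 15 of macrophages (median -0.05), 4 of enterocytes, 7 of kidney tubule and 14 of the adrenal medulla. Only 4 of 12 listed enterocyte genes and 7 of 13 listed kidney tubule genes were tested. On both lists 2 of the genes tested were under background in both groups, so the lists could show little about these cells. At an unadjusted limma p under 0.05, 2 macrophage markers, 1 enterocyte marker, 0 kidney tubule markers and 2 medulla markers were lower, and 1 medulla marker was higher. Of 13 adrenal cortex markers 1 passed: Cyp11b2, the aldosterone synthase, was higher (0.50, limma adjusted p = 0.00144). Star, which carries cholesterol into the mitochondria of steroid-producing cells, gave a log2 fold change of 0.09 (limma adjusted p = 0.318), and Th, the entry enzyme of catecholamine synthesis, by 0.01 (limma adjusted p = 0.941). Star was called in 1 of 15 alternatives, with a variance trend and a robust prior (adjusted p = 0.0364), and its adjusted p otherwise lay above 0.05 and reached 1. Of 14 adipocyte markers 12 were higher in the CGP group (median 0.45). The largest rise was that of Ucp1, the uncoupling protein of brown fat, at 1.22 (limma adjusted p = 4.33e-05), and the array medians of this list were 11.47 to 11.55 in the CGP group and 10.92 to 11.00 in the CON group. Their part in the results here was not tested.

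Among the other apolipoprotein genes of the mouse, 18 were listed and 7 tested, of which Apon and Apof were lower and 5 did not pass. Apon read 7.45, 7.36 and 7.38 on the CGP arrays, against 8.33, 8.17 and 8.26 on the CON arrays (log2 fold change -0.86, limma adjusted p = 0.000135). Apof, which inhibits lipid transfer in human plasma, read 7.56, 7.79 and 7.64 on the CGP arrays, against 8.28, 8.23 and 8.26 on the CON arrays (-0.59, limma adjusted p = 0.00201). Both were low on every CGP array. Those that did not pass were Apoc4 (-0.18, adjusted p = 0.196), which lies beside Apoc1 and Apoe, and Apod (0.14), Clu (-0.03), Apol6 (0.30) and Apol8 (0.01), which are made in many tissues. The median of the 7 was -0.03.

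Of 10 genes that assemble lipoproteins or load them with lipid, 3 were lower and none was higher (median -0.03). Cideb, a lipid droplet protein needed to load very-low-density lipoprotein with lipid, fell by 0.81 (limma adjusted p = 0.000249). Mttp, which transfers lipid onto Apob, fell by 0.42 (limma adjusted p = 0.00233), and Tm6sf2, which also acts in loading the particle, by 0.38 (limma adjusted p = 0.0158). The call for Tm6sf2 was lost without any 1 CGP array or without CON array 3 (adjusted p up to 0.0851). The cholesterol exporter Abca1 gave 0.19 (adjusted p = 0.0736).

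Among 14 plasma enzymes, transfer proteins and inhibitors, 2 were lower and 2 higher (median 0.03). Lcat, which Apoa1 activates, read 8.83, 8.90 and 8.95 on the CGP arrays, against 9.73, 9.87 and 9.81 on the CON arrays (log2 fold change -0.91, limma adjusted p = 0.000119). Pon1, an esterase carried on high-density lipoprotein, fell by 0.66 (limma adjusted p = 0.000436). Lpl, the lipase that clears plasma triglycerides and is abundant in adipose tissue, ran the other way. It read 11.35, 11.35 and 11.40 on the CGP arrays, against 10.74, 10.61 and 10.73 on the CON arrays (0.67, limma adjusted p = 0.000308), a change in the direction of the adipocyte markers. Pon3, another esterase of high-density lipoprotein, rose by 0.29 (limma adjusted p = 0.0137), a call lost without CGP array 2, CGP array 3 or CON array 3 (adjusted p up to 0.0874).

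Of 13 lipoprotein receptors and binding proteins, 2 were higher and 1 lower (median -0.005). Scarb1, the receptor through which the mouse adrenal takes cholesteryl esters from high-density lipoprotein, gave a log2 fold change of 0.0004 (adjusted p = 0.997). Sort1, a sorting receptor, rose by 0.38 (limma adjusted p = 0.0107), and Cd36, a scavenger receptor that also takes up fatty acids in fat, by 0.38 (limma adjusted p = 0.00973). Sdc1, a proteoglycan that binds remnant particles on hepatocytes, fell by 0.27 (limma adjusted p = 0.0401). None of these 3 calls held in every set of 5 arrays: that for Sort1 was lost without CGP array 1 or 2 (adjusted p up to 0.0665), that for Cd36 without CGP array 2 or 3 (up to 0.0617), and that for Sdc1 without any array except CON array 1 (up to 0.154).

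Of 21 transcription factors known to act on apolipoprotein genes, 2 were lower, 1 was higher and 18 did not pass (median 0.03). Hnf4a, a nuclear receptor of the HNF4 proteins, read between 7.95 and 8.03 on the CGP arrays, against 8.48, 8.53 and 8.49 on the CON arrays. It was low on every CGP array (log2 fold change -0.50 ± 0.045, limma adjusted p = 0.000709). The HNF4 form was matched in the first windows of Apoh, Apob and Apoa4, but not in those of Apoa2, Apoa1 and Apoa5, which also fell. A link between Hnf4a and these genes was not tested. Foxa3, a FOX protein of hepatocytes, fell by 0.41 (limma adjusted p = 0.00301), although 2 of its 3 CGP values were under background. Nr1d1, a circadian nuclear receptor that represses Apoc3 in mouse liver, rose by 0.32 (limma adjusted p = 0.00897), a call lost without CGP array 2 (adjusted p = 0.0627). Ppara (0.13, adjusted p = 0.151), Rxra (-0.005, adjusted p = 0.968), Foxa2 (-0.20, adjusted p = 0.0693) and Cebpa (0.26, adjusted p = 0.0695) did not pass.

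**Figure D4:**
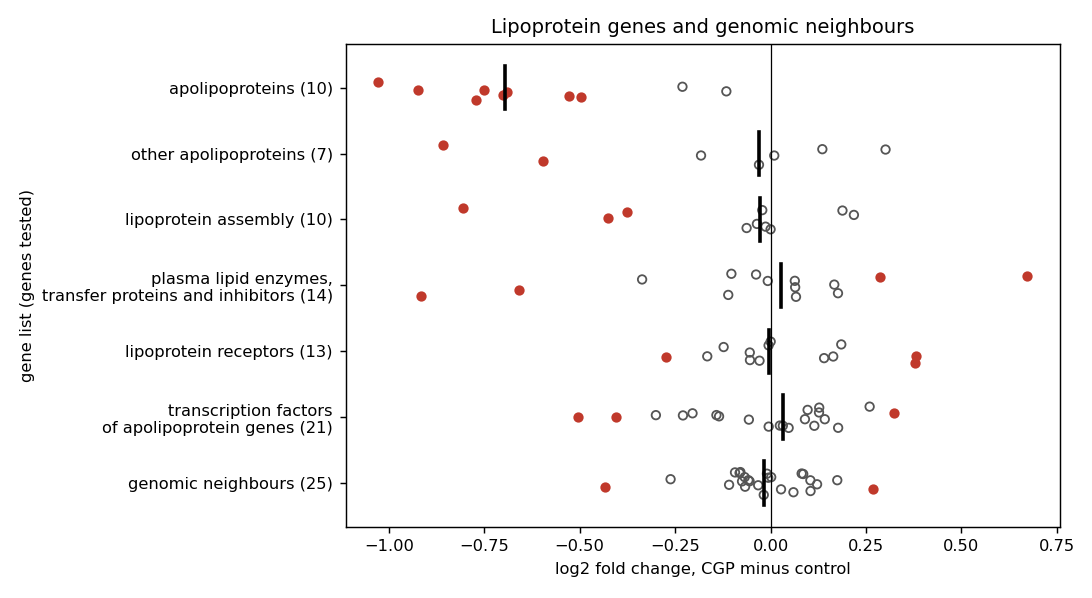
Each point is the log2 fold change (CGP minus control, horizontal axis) of 1 gene, filled in red where the limma adjusted p was under 0.05, and each black bar is the median of its list. The bar of the 10 apolipoproteins stands at -0.70, while those of the other 6 lists lie between -0.03 and 0.03.

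Most genes next to the apolipoprotein loci did not pass the test. Of 25 neighbouring genes tested, 23 did not pass, 1 was lower and 1 was higher, with a median log2 fold change of -0.02. Over all probe sets tested, 1.59% were called lower and 1.94% higher, so most genes elsewhere did not pass either. Around the chromosome 9 cluster, Zpr1 (-0.07), Bud13 (-0.07), Sik3 (0.10) and Pafah1b2 (-0.08) did not pass (adjusted p between 0.249 and 0.538). Around Apoe and Apoc1, Tomm40 (-0.06), Clptm1 (-0.01), Relb (0.09) and Nectin2 (0.002) did not pass. Beside Apoa2, Tomm40l, which overlaps it in the annotation, gave -0.01, and Fcer1g (-0.11) and Adamts4 (-0.08) did not pass. The only neighbours called were both beside Apoa2. Nr1i3, a nuclear receptor of hepatocytes, fell by 0.43 (limma adjusted p = 0.0364), and Pcp4l1 rose by 0.27 (limma adjusted p = 0.0177). The call for Nr1i3 was lost without any 1 CGP array or without CON array 3 (adjusted p up to 0.123), and that for Pcp4l1 without CGP array 2 or 3 or CON array 2 or 3 (up to 0.103). Near Apob, Klhl29 gave a log2 fold change of -0.26 (adjusted p = 0.0576) and passed in 5 of 15 alternatives, with adjusted p between 0.00982 and 1. Atad2b, Ldah and Gdf7 near Apob did not pass, nor did Prkca, Cacng5, Cep112 and Axin2 near Apoh, of which Cacng5 and Cep112 were under background. D17H6S53E, Gpank1, Bag6 and Prrc2a near Apom did not pass either.

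The genes whose pattern over the 6 arrays was most like the median apolipoprotein profile were sought by Euclidean distance between mean-centred log2 profiles. The nearest were Urah (distance 0.06), Ahsg (0.07), Tat (0.09), Reep6 (0.10) and Itih2 (0.11), whose log2 fold changes lay between -0.61 and -0.69. Ahsg, a plasma glycoprotein, and Tat, the tyrosine aminotransferase, were also on the hepatocyte list. This likeness rests on 6 arrays and is mainly the difference between the groups, and is given as a description.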

How the data were processed

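Adrenal RNA was measured on 6 Affymetrix whole-transcript arrays, 3 per group. The deposited table holds log2 values that the authors had background-corrected, normalised and summarised per probe set by RMA, and their processing notes also name Partek, with versions not given in the sources used here. RMA sets all arrays to a common distribution, so a level is relative to its array. The 25150 probe sets were paired with genes through the platform annotation: 16769 had 1 gene symbol, 1031 several and 7350 none. Those with 1 symbol were tested if 3 or more arrays reached a log2 value of 6, which left 16034. Array medians lay between 7.91 and 7.96. The CGP and control arrays were compared by the linear model of limma 3.58.1 under R 4.3.3, moderated by eBayes, two-sided and without covariates, p-values were adjusted over all of them by Benjamini-Hochberg, and the script was tested on simulated data.

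The 10 apolipoproteins and all gene lists were chosen with earlier results of these data known. For a list gene with several probe sets, which were Fga and Bhmt, the probe set with the smallest p was taken. Named were all apolipoproteins, up to 4 genes per list with the smallest adjusted p under 0.05, all genomic neighbours, the 5 genes most like the apolipoproteins, and Alb, Star and Th; list genes named although they did not pass were chosen after their values were seen. Neighbours were read from the RefSeq gene table of GRCm38.p6. Its coordinates gave only the order and overlap of genes. They were not matched to positions on the array, because the array's build was not given in the sources used here. Alternatives were the filter, the probe sets tested, normalisation, variance model, array weights, a 1.2-fold minimum, the replicate block, each array left out, and Alb as the yardstick.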

Additional observations from a re-analysis of the deposited data

How the results depend on the processing

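Of the 10 apolipoproteins, 8 were lower in every one of the 15 alternatives, except that Apoc1 was lost, leaving 7, when a change beyond 1.2-fold was required. The count over all probe sets, 566 as reported, moved to 1261 with a variance trend and robust prior, 1665 with array weights, 126 with the 1.2-fold minimum and 224 with the replicate block, and ranged from 236 (without CGP array 2) to 1099 (without CON array 1) when 1 array was left out. The 15 calls among the lipoprotein and transcription factor lists became 24 with array weights and 6 with the 1.2-fold minimum, and ranged from 9 (without CGP array 2) to 16 (without CON array 1). The 2 neighbour calls became 1 over all probe sets of the table and 0 both with the 1.2-fold minimum and with the replicate block, and ranged from 0 to 2 with 1 array left out. The median of the apolipoproteins relative to the hepatocyte markers, 0.25, was -0.28 with Alb as the yardstick and between 0.21 and 0.32 with 1 array left out. Array numbers did not pair the samples (correlations of deviations of -0.357, -0.169 and -0.118), and under the replicate block 8 apolipoproteins were still called, while the 15 list calls became 10 (1 higher and 9 lower), with Pon3 (adjusted p = 0.0958), Sort1 (0.0696), Cd36 (0.0705), Sdc1 (0.166) and Nr1d1 (0.0764) no longer called. Calls were 45.1% lower as reported, 42.4% after quantile normalisation again and 43.4% after median centring, but 80.2% with the 1.2-fold minimum, 69.6% with the replicate block, 57.1% over all probe sets of the table, and between 44.3% (without CON array 1) and 66.5% (without CGP array 2) with 1 array left out, so which direction held the majority depended on the setting. Over the 68 named genes and all their alternatives, 960 results kept their side of the threshold, 49 lost the call and 6 gained it. No called change reversed its direction. Genes not called could change sign and were counted as kept, such as Clptm1, which ranged between -0.037 and 0.035. Apom gave no value at a log2 minimum of 7. With 3 arrays per group, small changes of dim transcripts could not be resolved, and Apom had no measurable level.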
